A study of Danio rerio with 246 samples.

Results

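The nitr and dicp genes encode 2 families of immunoglobulin-domain receptors of bony fish. They were chosen by name alone, as the rows of the count table whose zebrafish symbol starts with nitr or dicp. This gave 26 of 21876 genes, 18 of them nitr and 8 dicp. Whether each row encodes such a receptor was not checked against its protein sequence here.

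Both families are multigene families of the innate immune system. A nitr gene encodes a cell-surface protein with a variable-like immunoglobulin domain, and many members carry inhibitory tyrosine motifs in the cytoplasmic tail, while a few pair with activating adaptors. In function they have been compared with the receptors by which mammalian natural killer (NK) cells read their targets. The dicp genes, named for diverse immunoglobulin-domain-containing proteins, have inhibitory, activating and secreted forms, and some of their proteins bind lipids. Copies within a family can be nearly identical, so a read from one copy can be counted for another or be left out as ambiguous, and the level of any single copy is uncertain.

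The values were read counts from 246 single zebrafish cells from the whole kidney marrow, where fish form their blood, which were sorted into plates by their fluorescence and made into libraries by a variant of Smart-seq2. The cells came from 6 reporter lines named Runx123_GFP (39 cells), cd41_GFPlow (43), mpx_EGFP (47), rag2_GFP (48), lck_GFP (38) and lck_GFP_rag1 (31). Of the names, 4 refer to an integrin of thrombocytes (cd41), a neutrophil enzyme (mpx), a recombinase (rag2) and a T and NK cell kinase (lck). The genotype behind the added rag1, and the strain, age and number of the fish, are not given in the labels. Each line is therefore 1 sample, no test between lines was made, and every interval covers counting of reads or cells only. A level is in counts per 1000000 (CPM) of all assigned reads of a line's summed cells or, where a single cell is meant, of that cell, and is not per length. A copy was called detected in a cell at 10 CPM or more.

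Cells had 47630 to 2969770 reads, and median reads per cell ran from 457962 in mpx_EGFP to 1218459 in lck_GFP_rag1. Median read pairs mapped to more than 1 place were 3.92 to 5.98% over the lines, with 5.70% in lck_GFP_rag1. Median PCR duplicates were 27.9% in lck_GFP_rag1 and 13.7 to 17.4% elsewhere. Cells detecting at least 3 markers of the lists used here came to 27 of 31 in lck_GFP_rag1 for NK and cytotoxic genes, 34 of 38 in lck_GFP for T cell genes, 34 of 48 in rag2_GFP for B cell genes and 47 of 47 in mpx_EGFP for neutrophil genes. In Runx123_GFP 21 of 39 cells had thrombocyte genes, and in cd41_GFPlow 16 of 43 had monocyte and macrophage genes. These lists were chosen with earlier results of these data known. All lines except rag2_GFP and lck_GFP, which share plate 2, stood on plates of their own, so plate and line cannot be told apart.

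The families differed in the lines that used them. The nitr genes were found mostly in lck_GFP_rag1, at 685 CPM in all (95% exact Poisson interval 678 to 693), and in lck_GFP, at 415 CPM (407 to 423). In mpx_EGFP no nitr read was found, and cd41_GFPlow had 10 reads. The dicp genes were highest in mpx_EGFP, at 729 CPM (718 to 740.0), followed by cd41_GFPlow at 179 CPM (175 to 183) and lck_GFP_rag1 at 161 CPM (157 to 165). Runx123_GFP and rag2_GFP were low in both families. For nitr they had 3.99 and 38.58 CPM and for dicp 3.18 and 0.032 CPM.

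The nitr sum of lck_GFP_rag1 lay 2.89 above the mean of the other 5 lines on the log2(CPM + 1) scale, and its dicp sum -0.18 from that mean. Much of the nitr reference was 1 cell. The lck_GFP cell in well G09 held 93.6% of the nitr reads of its line. Without that cell and the lck_GFP_rag1 cell F12, a setting added with the values known, the nitr difference was 5.59 and the dicp difference -0.33. In cells with at least 1000 genes the nitr difference was 1.69, under the 4-fold line. That setting kept 12 lck_GFP cells, among them G09 with 1375 genes, and the part of G09 in the value was not tested. The sign of the dicp difference turned with the setting, from -0.86 in cells with at least 1000 genes to 0.17 with DESeq2 size factors. With both families together the difference was 1.62, and 2.16 without the same pair of cells.

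**Figure D1:**
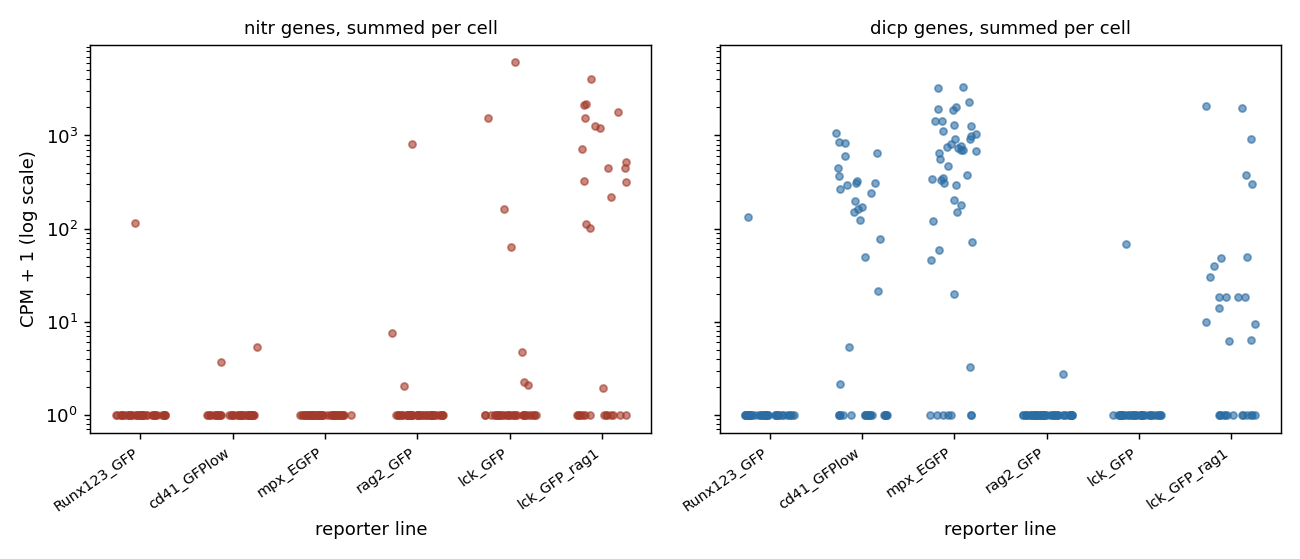
Summed level per cell of the nitr genes (left) and the dicp genes (right) in the 6 reporter lines, in CPM + 1 on a log axis, with 1 point per cell spread sideways at random. The cells with nitr reads at high level sit mostly in lck_GFP_rag1 and in a few lck_GFP cells. High dicp levels are found in mpx_EGFP, in cd41_GFPlow and in some lck_GFP_rag1 cells.

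At least 1 copy of either family was detected in 22 of 31 lck_GFP_rag1 cells (71.0%, exact Clopper-Pearson 95% interval 52.0 to 85.8%) and in 39 of 47 mpx_EGFP cells (83.0%, 69.2 to 92.4%). The share was 21 of 43 (48.8%, 33.31 to 64.5%) in cd41_GFPlow and 5 of 38 (13.2%, 4.41 to 28.1%) in lck_GFP. It was 2 of 39 cells (5.13%) in Runx123_GFP and 1 of 48 (2.08%) in rag2_GFP. Receptors of these families were thus not limited to one line, and the intervals of lck_GFP_rag1 and mpx_EGFP overlap. Thinning cells to 200000 reads left out those with fewer reads. The shares were then 73.3% (22 of 30 cells) in lck_GFP_rag1, 83.0% (39 of 47) in mpx_EGFP, 51.2% (22 of 43) in cd41_GFPlow and 12.5% (4 of 32) in lck_GFP. For nitr alone, 16 of 31 lck_GFP_rag1 cells (51.6%, 33.1 to 69.8%) had a copy, against 4 of 38 lck_GFP cells (10.53%, 2.94 to 24.8%). In mpx_EGFP 0 of 47 cells had one, which allows a share of up to 6.38% by a limit of 3 cells, and in cd41_GFPlow 0 of 43, which allows up to 6.98%. The exact Clopper-Pearson upper bounds are 7.55% and 8.22%. In rag2_GFP and Runx123_GFP a nitr copy was found in 1 of 48 and 1 of 39 cells, at median depths of 704023 and 877541 reads.

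Cells of lck_GFP_rag1 that had a copy had a median of 3 copies at once, and 12 of the 31 cells had 3 or more. The highest number was 7 copies in 1 cell, and 1 cell each had 5 and 6. In mpx_EGFP the median was 2, with 18 cells at 1 copy, 19 at 2 and 2 at 3. In cd41_GFPlow 12 cells had 1 copy, 5 had 2 and 4 had 3. Similar copies bear on these numbers. When copies were merged by the stem of their symbol (nitr1a, nitr1f, nitr1i, nitr1m and nitr1o to nitr1, for example), the median in lck_GFP_rag1 was 1 and the highest number 3.

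**Figure D2:**
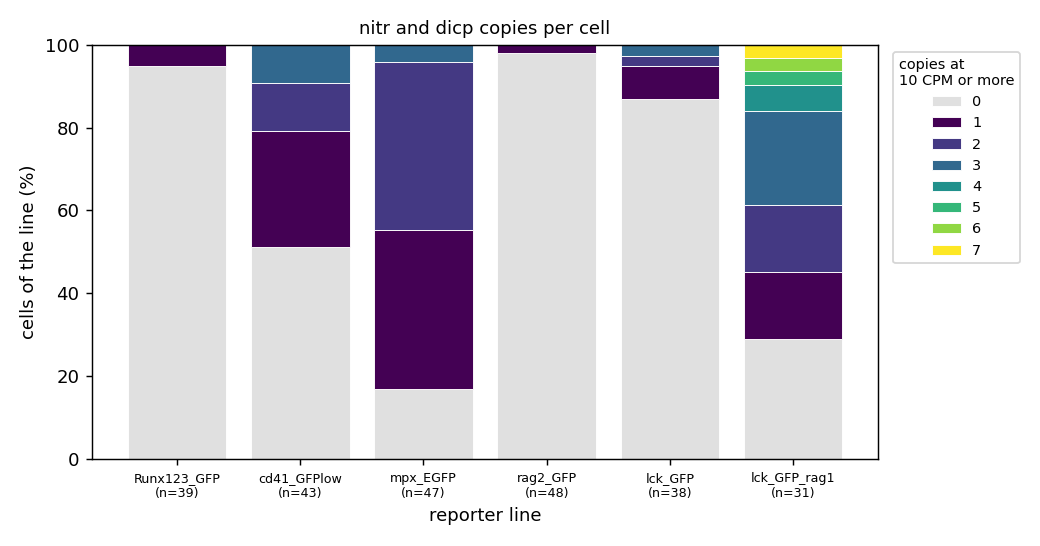
Share of the cells of each line (in %) by the number of nitr and dicp copies detected at 10 CPM or more. In lck_GFP_rag1 12 of 31 cells had 3 or more copies, in mpx_EGFP 2 of 47.

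Over the 26 genes, 16 reached 10 CPM in the summed profile of at least 1 line, 12 nitr and 4 dicp. The other 10 stayed below it in all lines, and all 26 had at least 1 read. Of the 16, 10 were at least 4-fold higher in lck_GFP_rag1 when set against the other 5 lines' mean, namely nitr1a, nitr1f, nitr1i, nitr1m, nitr2b, nitr3a, nitr3b, nitr7b, dicp1.1 and dicp2.1. At least 4-fold lower were dicp3.1, dicp3.3, nitr8 and nitr9, which had no read in lck_GFP_rag1 and so had to lie below that mean. Over all 12660 genes at that level the share at least 4-fold higher was 8.59% and the share lower 49.7%. A gene that passed the level through lck_GFP_rag1 alone had to lie above that mean, so the count over genes that passed it carries no further weight. Those that passed in this way were nitr1a, nitr1f, nitr1i, nitr1m, nitr3a, nitr3b and nitr7b. The count was 6 with a pseudocount of 10 CPM, where 4.42% of all genes were higher. It was 6 with a level of 50 CPM, which fewer of the 16 reach, where 9.14% were higher. It was also 6 when the highest cell of every gene was removed from each line, where 4.96% of all genes were higher. That last setting was added with the values known. In lck_GFP_rag1 nitr2b drew 95.1% and nitr3a 92.2% of its reads from 1 cell. The median log2 ratio was -1.98 over all genes and 3.00 over the 16. The same genes bear on the 3.00, which therefore carries no further weight either. With DESeq2 size factors the median of all genes was -1.68.

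**Figure D3:**
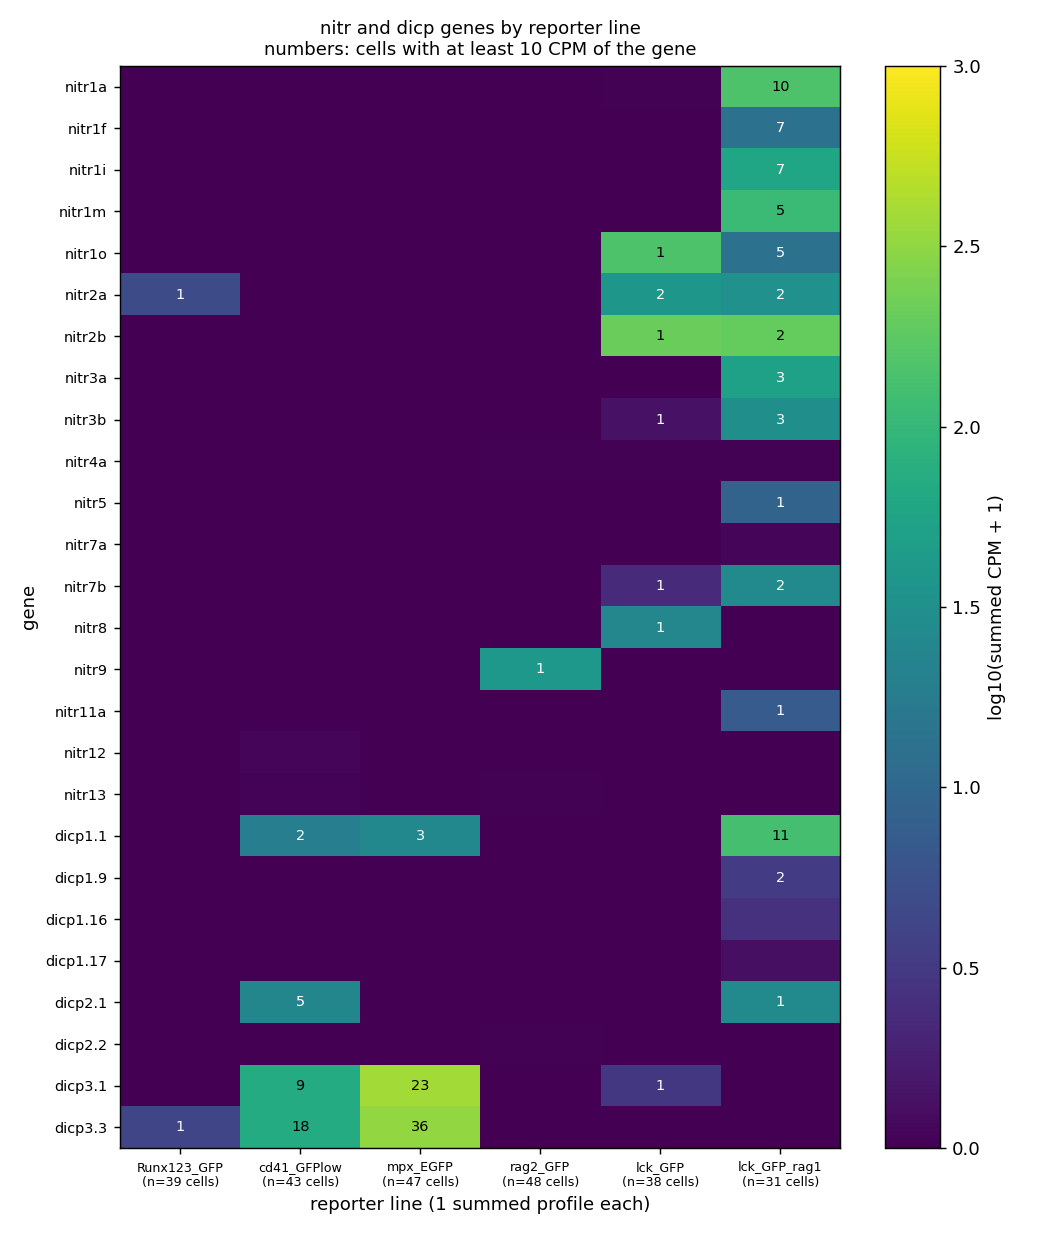
Level of all 26 genes in the summed profile of each line, coloured by log10(CPM + 1), with the number of cells at 10 CPM or more written in each field. Most nitr genes have values in the lck_GFP_rag1 column and in part in lck_GFP, and dicp3.1 and dicp3.3 in mpx_EGFP and cd41_GFPlow.

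The nitr1 genes made up the most common group in lck_GFP_rag1. All 5 were detected there, in 11 cells, and each of these 11 cells had at least 2 of them. The copy nitr1a was at 145 CPM in the summed profile (95% exact Poisson interval 142 to 149) and had 1 read in the other lines together. In the 10 cells that had it, its level ran from 51.7 CPM over a median of 248 CPM to 1489 CPM, and the top cell held 37.6% of its reads. The copy nitr1m was at 111 CPM from 5 cells, in which it ranged from 12.1 over 260 to 1226 CPM. Its top cell held 60.2% of its reads. It had no read in the other 5 lines, and its level was 6001 times what 3 reads summed over those lines would give. On that basis nitr1i, at 57.1 CPM from 7 cells, was at 3092 times and nitr1f, at 12.2 CPM from 7 cells, at 661 times. These figures cover counting of reads only, not the few cells that the reads came from. The levels of nitr1i in its cells were 14.8 to 379 CPM and those of nitr1f 11.5 to 118 CPM.

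The fifth copy, nitr1o, did not follow this division. It was detected in 5 lck_GFP_rag1 cells, at 13.6 to 103 CPM, and summed to 11.99 CPM there. In lck_GFP it was at 144 CPM, of which 99.97% came from the cell in well G09, where it stood at 2268 CPM. It was the only nitr1 copy at 10 CPM in that cell, which had 1 read of nitr1a.

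In lck_GFP_rag1 the nitr1 copies were found in the same cells. All 7 cells with nitr1f and all 5 with nitr1m were among the 10 with nitr1a, and 6 of 7 with nitr1i were. The leading copy differed from cell to cell. In the cell of well B09 nitr1a led at 1489 CPM with nitr1i next at 21.7 CPM, in well C03 nitr1m led at 1226 CPM with nitr1i at 316 and nitr1a at 296 CPM, and in well G05 nitr1i led at 379 CPM with nitr1m at 260.4 CPM. Whether the lower copies in a cell are transcripts or shared reads of the leading one was not tested. Of 108 copies with a read in a cell of this line, 46 were below 10 CPM, and 28 of these 46 stood beside a copy of the same symbol stem at 10 CPM or more in the same cell.

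The nitr2 genes were few-cell genes with high levels. In lck_GFP_rag1 nitr2b was at 194 CPM (190 to 198), the highest summed level of a nitr gene in that line, and 95.1% of it came from 1 cell. That cell, in well D02, had nitr2b at 3373 CPM, nitr2a at 503 CPM and nitr11a at 115 CPM, and the second, in well C03, had nitr2b at 173 and nitr2a at 81.9 CPM. In lck_GFP nitr2b was at 207 CPM, all from the cell in well G09, where it reached 3264 CPM beside 577 CPM of nitr2a. The summed levels of nitr2b and nitr2a thus differed little between the lck lines, at -0.10 and -0.24 on the log2(CPM + 1) scale for lck_GFP_rag1 against lck_GFP. The call of nitr2b as higher in lck_GFP_rag1 came from the mean with the lines that lacked it. One Runx123_GFP cell had nitr2a alone, at 114 CPM.

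In lck_GFP_rag1 the nitr3 genes came as a pair. The genes nitr3a and nitr3b were detected in the same 3 lck_GFP_rag1 cells, and their order differed between them. In well E05 nitr3a was at 2177 CPM and nitr3b at 24.95 CPM, in well F02 nitr3b was at 966 and nitr3a at 133 CPM, and in well F05 nitr3b was at 400 and nitr3a at 48.7 CPM. In the sum nitr3a was at 50.9 CPM, with 92.2% of its reads from 1 cell and no read in the other lines. That was 2753 times what 3 reads in those lines would give, which covers counting of reads only. The sum of nitr3b was 30.4 CPM against 0.391 CPM in lck_GFP. The lck_GFP reads came from 1 cell, in well G07, which had nitr3b at 162 CPM without nitr3a. That level rests on 9 of the cell's 55429 reads. The gene nitr7b was detected in 2 lck_GFP_rag1 cells at 681 CPM each, once beside the nitr3 pair and once beside nitr1a and nitr1f. Its sums were 26.2 CPM there and 1.35 CPM in lck_GFP.

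Other nitr genes were found in single cells. The gene nitr9, which in zebrafish is known as an activating member that signals through the adaptor Dap12, was found in 1 rag2_GFP cell, in well D02 of plate 2, at 816 CPM, and had no read in any other cell. That cell detected none of the B cell list and none of the T cell list, and of the NK and cytotoxic list only runx3, at 636 CPM. The gene nitr8 was found in 1 lck_GFP cell, in well H05, at 1524 CPM, and nowhere else. One lck_GFP_rag1 cell had nitr5, at 317 CPM. The genes nitr4a, nitr7a, nitr12 and nitr13 had at most 6 reads in any line.

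**Figure D4:**
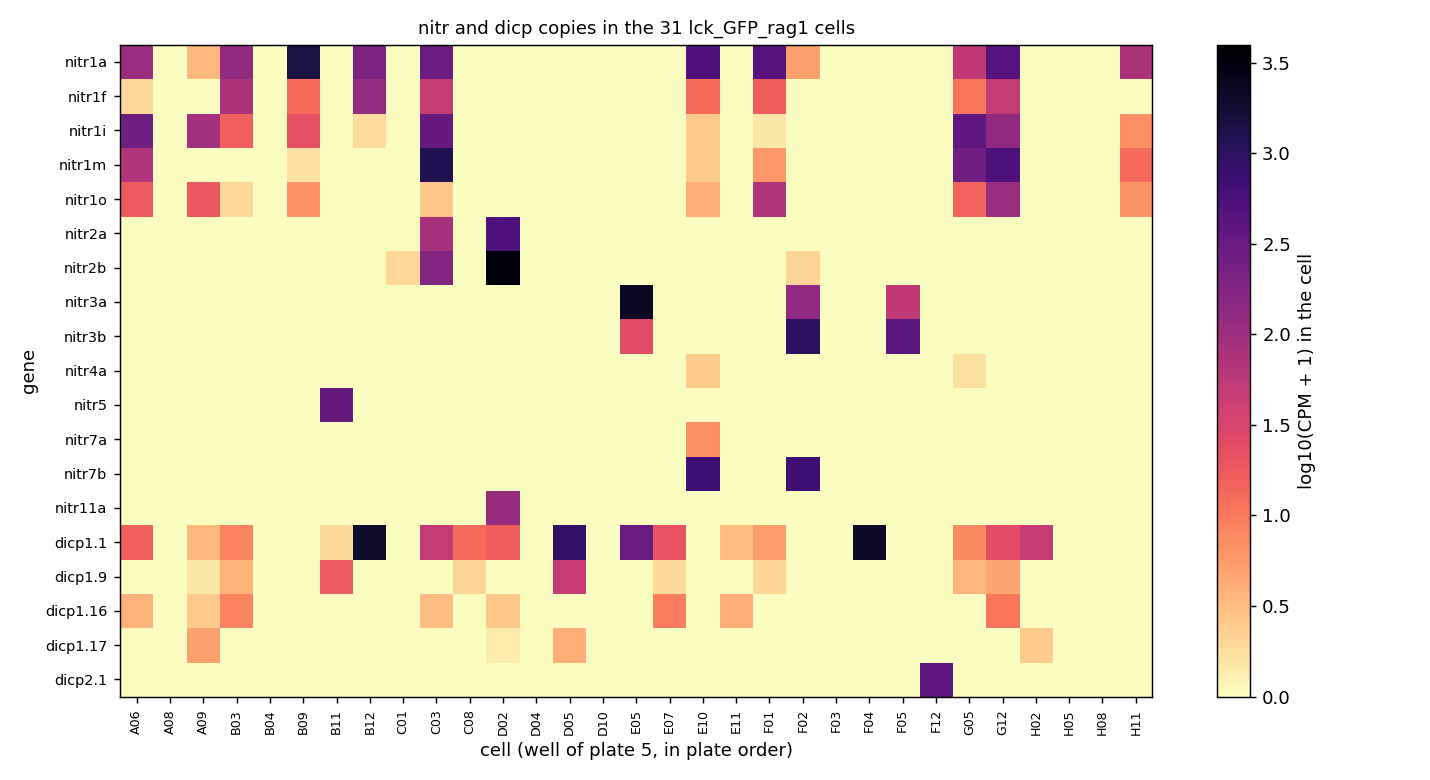
Copies with a read in the 31 lck_GFP_rag1 cells, in plate order, coloured by log10(CPM + 1) in the cell. The nitr1 genes share 11 cells, nitr3a and nitr3b share 3, and dicp1.1 is found with and without nitr genes.

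Combinations of copies in the cells of lck_GFP_rag1 were counted by single copy and by symbol stem. The 22 cells with a copy at 10 CPM had 18 different combinations, of which 16 were found in 1 cell, dicp1.1 alone in 4 and nitr1a with nitr1f and nitr1i in 2. Of the cells with dicp1.1 alone, F04 had it at 2093 CPM, and C08, E07 and H02 at 11.9, 19.9 and 45.6 CPM. Merging by symbol stem can only keep or lower the number of combinations. It left 11, with nitr1 alone in 6 cells, dicp1 alone in 5, the 2 together in 3 and each of the others in 1. Similar copies may share reads, which bears on the number of combinations by copy. In the 17 cells with at least 2 copies, the leading copy held 40.6 to 97.4% of the cell's family reads, with a median of 76.9%. In all, 15 of the 26 genes were used in the line at 10 CPM in at least 1 cell, and 12 in at least 2 cells. Of these 15, dicp2.1 came from the cell in well F12 alone, and 14 were left without that cell. In lck_GFP 7 were used, in cd41_GFPlow 4, in mpx_EGFP 3, in Runx123_GFP 2 and in rag2_GFP 1. The share of all genes used by this rule was not computed. As depth and number of cells also differ, these counts do not compare the lines.

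Between the lck lines, nitr1a, nitr1i, nitr1m, nitr1f and nitr3a had their reads in lck_GFP_rag1, with 1 nitr1a read in lck_GFP, and nitr8 had its reads in lck_GFP. The copy nitr1o was -3.48 in lck_GFP_rag1 against lck_GFP on the log2(CPM + 1) scale. Of the 4 lck_GFP cells with nitr, 3 had at least 3 T cell markers, as had 34 of all 38 cells of the line. Those in wells G09, H05 and H12 detected 3, 4 and 4 T cell list genes, among them il7r, a survival receptor of T cells, at 1118, 4629 and 24.5 CPM, and bcl11ba, a T cell factor, at 2301 CPM in G09 and 957 CPM in H05. The same cells detected 3, 3 and 4 genes of the NK and cytotoxic list, among them the chemokine gene ccl36.1 at 2141, 1926 and 252 CPM. Of all 38 cells of lck_GFP, 10 had at least 3 genes of that list, 7 of them without nitr, and 8 had ccl36.1. The kinase gene lck had no read in G09 and was at 469 CPM in H05 and 228 CPM in H12. No cell of lck_GFP, with or without nitr, had nkl.2, the NK-lysin gene detected in 20 lck_GFP_rag1 cells, or tbx21.

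In lck_GFP_rag1 the cells with nitr also had cytotoxic genes. All 16 had at least 3 genes of the NK and cytotoxic list, and so had 11 of the 15 cells without nitr. The list left out nitr and dicp genes but was chosen with earlier results of these data known, so its counts are description only. That list had 15 of 17 measured genes at least 4-fold higher in lck_GFP_rag1 than in the other lines' mean and 1 lower, against 8.59% and 49.7% of all measured genes. Of the 17, 7 reached 10 CPM in lck_GFP_rag1 alone and so had to lie above that mean. The NK-lysin gene nkl.2 was detected in 13 of the 16 cells with nitr and 7 of the 15 without. The interleukin 2 receptor gene il2rb was in 12 and 8, the transcription factor gene tbx21 in 7 and 2, and lck in 11 and 5. These are counts in 1 sample. The cells without nitr include all cells of the line below 3 genes of the NK and cytotoxic list. Of these, F12 had 0 genes of that list and 14 monocyte and macrophage genes. The cell in well H05, at 92121 reads, had 1 and 6. The cell in well H08, with 69.8% PCR duplicates, had 0 and 0, and A08 had 2 and 1. The part of these cells in the counts was not tested. The cells with nitr were also deeper, with a median of 1558506 reads against 965687 in those without, and the part of depth in these counts was not tested. Of the T cell list, 10 of 11 measured genes were lower, against 49.7% of all measured genes, and no cell of the line had 3 of its genes.

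Genes that act below such receptors were partly raised as well. In a list of adaptors, kinases and phosphatases that work with activating or inhibitory tyrosine motifs, 46 genes were matched and measured, and 10 were at least 4-fold higher in lck_GFP_rag1 and 8 lower, where 8.59% of all measured genes were higher and 49.7% lower. The median log2 ratio was 0.66, against -1.98 over all genes. Higher were the adaptor genes fcer1g, at 349 CPM in 15 of 31 cells against a mean of 8.97 CPM, and lcp2b, at 236 against 4.80 CPM. The kinase gene txk was at 208 against 7.88 CPM, and sla2b, an adaptor that dampens receptor signals, at 391 against 15.8 CPM. The others were cd247l, sh2d1ab, sla2a, cbl and 1 of 2 genes named sla, with log2 ratios of 2.56 to 3.40. The gene tyrobp, which encodes Dap12, was at 26.02 CPM from 1 lck_GFP_rag1 cell, which had nitr and dicp copies, and it had no read in any other line. The phosphatase gene ptpn6, whose product binds inhibitory tyrosine motifs, was at 947 against 337 CPM (log2 ratio 1.49). It was detected in 10 of the 16 nitr cells and 5 of the 15 others, with the limits given above for cells without nitr. Lower were zap70 and itk, kinase genes of T cells, with no read in lck_GFP_rag1, and ptpn11b, vav2, inpp5e, src, lyn and yes1.

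Among the dicp genes, dicp1.1 was used in lck_GFP_rag1 and in a few cells of mpx_EGFP and cd41_GFPlow. It was at 130.4 CPM (127 to 134) in lck_GFP_rag1, at 23.9 CPM in mpx_EGFP and at 18.1 CPM in cd41_GFPlow. In lck_GFP_rag1 it was detected in 11 cells at 2 ranges of level. In 4 cells it stood at 299 to 2093 CPM, and in 7 at 11.9 to 46.8 CPM, with none between, a division drawn after the values were seen. In mpx_EGFP its 3 cells were at 267, 329 and 665 CPM, and in cd41_GFPlow its 2 cells were at 322 and 411 CPM. The cd41_GFPlow cell at 411 CPM, in well D06, detected 14 monocyte and macrophage genes. The other, in well C09, detected none of them. It had prf1.3, of the NK and cytotoxic list, at 1242 CPM and srgn, of the neutrophil list, at 1064 CPM. All 11 lck_GFP_rag1 cells with dicp1.1 had at least 3 NK and cytotoxic genes, as had 27 of all 31 cells of the line. The related dicp1.9, dicp1.16 and dicp1.17 had reads in lck_GFP_rag1 alone, at 2.34, 1.71 and 0.327 CPM. Only dicp1.9 reached 10 CPM in a cell, in 2 cells at 16.4 and 45.8 CPM, and 1 of these had dicp1.1 at 873 CPM.

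The genes dicp3.1 and dicp3.3 had their highest summed levels in mpx_EGFP. In mpx_EGFP dicp3.1 was at 381 CPM (373 to 389) from 23 of 47 cells and dicp3.3 at 324 CPM (317 to 332) from 36 of 47. Their means over the other 5 lines were 14.1 and 14.6 CPM. They were 2 of the 16 measured genes that were at least 4-fold higher in mpx_EGFP, where 6.03% of all genes were, while 12 of the 16 were lower, where 39.2% of all genes were. Those 12 had no read in mpx_EGFP and passed the level through other lines. They had to lie below the mean of the other lines, so their count carries no further weight. In the cells where they were detected, dicp3.1 ranged from 51.9 over a median of 548 to 1631 CPM and dicp3.3 from 14.04 over 374 to 1772 CPM. The top cell held 13.8 and 10.1% of their reads, so neither rested on 1 cell. Neither had a read in lck_GFP_rag1 or rag2_GFP. Other lines than mpx_EGFP and cd41_GFPlow had them in 1 cell each at most, dicp3.1 in lck_GFP at 67.1 CPM and dicp3.3 in Runx123_GFP at 132 CPM.

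In cd41_GFPlow dicp3.1 was at 68.2 CPM from 9 of 43 cells and dicp3.3 at 69.6 CPM from 18 of 43. Against cd41_GFPlow, mpx_EGFP was 2.46 higher for dicp3.1 and 2.20 higher for dicp3.3 on the log2(CPM + 1) scale, and lower for dicp2.1. Of 9138 genes measured in either line 9.74% were at least 4-fold higher in mpx_EGFP and 27.6% lower. The cd41_GFPlow cells with dicp3.3 had markers of more than 1 myeloid type. Of the 18, 12 had at least 3 monocyte and macrophage markers, as had 16 of all 43 cells, and 4 had at least 3 neutrophil markers, as had 11 of all 43. Of the 9 with dicp3.1, 7 had at least 3 monocyte and macrophage markers and 2 at least 3 neutrophil markers. In mpx_EGFP, all 47 cells had the neutrophil list and none had the monocyte and macrophage list.

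Within a cell the 2 genes were often together, and either could lead. In mpx_EGFP 20 of 39 cells with either had both, dicp3.1 leading in 13 and dicp3.3 in 7, with a log2 ratio of dicp3.1 to dicp3.3 of -3.62 to 4.65. In cd41_GFPlow 7 of 20 had both, with dicp3.1 leading in 4. Reads of dicp3.1 below 10 CPM in cells with dicp3.3 differed between the lines. In cd41_GFPlow 10 of 11 such cells had a few dicp3.1 reads, and the number was 2.47 to 5.33% of the dicp3.3 reads in the cell. In mpx_EGFP 3 of 16 such cells had any, and summed over the cells they came to 0.192% of the dicp3.3 reads, against 3.46% in cd41_GFPlow. Why the lines differ in this was not tested. The 10 CPM rule also sets which cells count as having both. In cd41_GFPlow the cell in well A02, with 10 dicp3.1 reads beside 152 of dicp3.3, counted as both at 20.04 CPM of dicp3.1. In the current RefSeq gene table of the zebrafish (assembly GRCz12tu), dicp3.3 and dicp3.1 lie on the same chromosome with 2 genes between them.

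**Figure D5:**
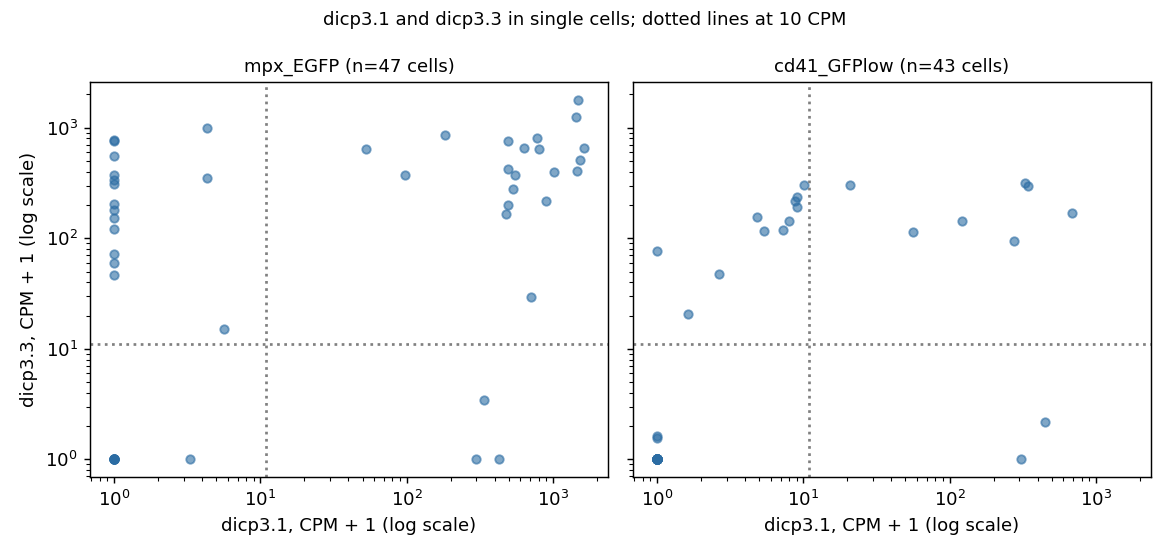
Level of dicp3.3 (vertical axis) against dicp3.1 (horizontal axis) in each cell of mpx_EGFP and cd41_GFPlow, in CPM + 1 on log axes, with dotted lines at 10 CPM. Cells with dicp3.3 and few dicp3.1 reads form a sloping row in cd41_GFPlow and stand at 0 dicp3.1 in most mpx_EGFP cells.

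The gene dicp2.1 was found with macrophage markers. It was at 22.99 CPM in cd41_GFPlow, from 5 cells at 149 to 321 CPM, and at 26.1 CPM in lck_GFP_rag1, from 1 cell at 376 CPM. All 5 cd41_GFPlow cells had at least 3 monocyte and macrophage markers, as had 16 of the 43 cells of the line, and all 5 had dicp3.3. The lck_GFP_rag1 cell, in well F12, detected all 14 matched monocyte and macrophage genes, with the scavenger receptor gene marco at 2905 CPM and the complement gene c1qb at 1298 CPM. It had no gene of the NK and cytotoxic list at 10 CPM, no lck read and 51.4% of the line's reads of the monocyte and macrophage list. The call of dicp2.1 as higher in lck_GFP_rag1 therefore rests on a cell whose markers are not those of its line. Its neighbour dicp2.2, which lies next to it in the RefSeq table, had 1 read in the whole data set.

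By place in the RefSeq table, 14 of the 15 nitr genes that it names lie on 1 chromosome in a run with at most 12 other genes between neighbours. The genes nitr2a and nitr2b are adjacent there, and nitr3a and nitr3b have 1 gene between them, as have nitr2b and nitr1a. Of the 26 genes 19 were matched to that table by symbol, and nitr1f, nitr1i and nitr1o were not among them. Among copies found together in a cell, nitr2a and nitr2b are adjacent in that table, whereas nitr7b and nitr1a have other nitr genes between them.

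Genes with symbols like those of other receptor families of fish innate cells were counted beside them, by symbol alone. Symbols starting with illr, pigrl, clec or nccrp gave 11 genes, of which 8 were measured, and in lck_GFP_rag1 none was at least 4-fold higher and 7 were lower, where 49.7% of all measured genes were lower. Among them illr4, for a lectin-like receptor, was at 844 CPM in mpx_EGFP from 43 of 47 cells, and illr1 at 607 CPM in rag2_GFP from 15 of 48 cells, and both had no read in lck_GFP_rag1. The lower genes also include clec16a and clec14a, at log2 ratios of -4.99 and -3.64. Whether each gene of this set encodes a receptor of innate cells was not checked.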

How the data were processed

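Gene-level read counts of each cell were used as the authors deposited them. STAR, Picard, featureCounts and build GRCz10 are named, per the submitters' processing notes, and how reads mapping to several copies were counted is not given in the sources used here. Per the file headers, a cell table gives counts of reads and genes, which equal the count table in 246 of 246 cells, and a second table holds, by well, unique and multiple mapping in percent and PCR duplication as a fraction, of which 138 wells with no cell in the count table were not used. No molecular identifiers are named, so PCR reads are not independent molecules.

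Symbols came from a table of Ensembl IDs, which gives 33 IDs a nitr or dicp symbol, and the 26 in the count table were analysed here. Genes without a symbol (2527, 5.23% of reads) stayed in totals. Counts were summed by line and scaled to CPM, and a difference was log2 of the ratio of CPM + 1, called at 2 (4-fold) for genes at 10 CPM in at least 1 line compared. Each line is 1 sample, so no p-value was made. Copies were detected in a cell at 10 CPM. Thinning drew 200000 reads per cell at random and left out cells with fewer reads. Cells were taken as sorted, with no doublet removal. Genes named were all at 10 CPM in a line, with full values for the 8 at 50 CPM and in at least 2 cells, and up to 5 per list and direction (10 for signalling partners). Those named from the cell type lists were not always the ones with the largest ratios. In the NK and cytotoxic list nkl.4, at a log2 ratio of 8.77, lies above il2rb at 5.38 and tbx21 at 4.86. Genes in few cells, such as nitr5, nitr11a and dicp1.9, were also named after their values were seen. The members and lists were chosen with earlier results of these data known. The size rule was tested on simulated line sums, drawn without variation between cells. They do not show how the rule treats genes whose reads come from 1 or a few cells. Tools were Python 3.11.15, pandas 2.3.3, SciPy 1.17.1, edgeR 4.0.16 and DESeq2 1.42.0, the last 2 for scaling factors only.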

Additional observations from a re-analysis of the deposited data

How the results depend on the processing

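No paired analysis was possible because each line is 1 sample and the cell numbers pair nothing. Alternatives changed 27 of 53 values by more than their counting interval or, for counts, by more than 1.5 times. Only a difference of at least 4-fold could be scored as turned in direction. The nitr sum alone was such a value, and its direction did not turn. The count of genes at least 4-fold higher in lck_GFP_rag1 was 10, where 8.59% of all genes were higher. It was 6 with a filter of 50 CPM (9.14% of all genes), which fewer of the genes reach. It was also 6 with a pseudocount of 10 CPM (4.42%) and without each gene's top cell (4.96%). Merging copies by stem gave 6 of fewer units, and the share of all genes was not computed there. An 8-fold rule gave 8 (4.53%), and the remaining settings gave 9 to 12 (5.79 to 13.6%). With stems merged the median of copies was 1 (against 3) and the copies used were 8 (against 15). The log2 differences of the sums moved beyond counting error in every alternative. For TMM scaling, DESeq2 size factors, mean per-cell CPM, thinning to 200000 reads, cells of at least 1000 genes, no top family cell in each line, and no F12 and G09 cells, in that order, both families together gave 1.57, 1.95, 1.71, 1.72, 1.098, 1.93 and 2.16 (main value 1.62). The nitr sum gave 2.99, 3.16, 3.59, 3.47, 1.69, 6.19 and 5.59 (2.89), and the dicp sum -0.31, 0.17, 0.061, 0.16, -0.86, 0.0095 and -0.33 (-0.18). The dicp difference thus has no settled sign. The nitr difference fell below 4-fold in cells of at least 1000 genes, of which lck_GFP had 12, with G09 among them. The values of the families apart, and those without F12 and G09, were chosen after seeing the data. The share of lck_GFP_rag1 cells with a copy ran from 61.3 to 83.3%, within its interval. Thinning to 200000 reads left the median of copies at 3.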
